A study of Homo sapiens with 14 samples.

Results

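The platform of the small ribosomal subunit was described here through the part of human 18S ribosomal RNA that lies after nt 910, the last nucleotide of the expansion segment ES6S, and before nt 1199, where the head begins. Members were chosen by position alone, as the nucleotides between these fixed, approximate limits of the central domain that had a score with all 3 reagents, and all 288 positions qualified among 1833 scored nucleotides of 18S (15.7%). The other 1545 scored nucleotides served as the reference. The limits were not matched to a sequence or a structure, so the assignment to the platform rests on numbering.

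As background, the platform is the side lobe of the small subunit, and with the ribosomal proteins uS11 and eS26 it lines the exit site for tRNA and the path by which messenger RNA leaves the ribosome. Its RNA folds into stems joined by loops, and loops that face the tRNA or messenger RNA path lie beside paired stems and protein contacts. The 2′-hydroxyl of the ribose takes up an acyl group from such reagents mainly where the nucleotide is flexible and within reach, and the adduct blocks reverse transcriptase. A high score is therefore taken as an open nucleotide and a low score as a paired, rigid or covered one.

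HEK293 cells, an established line from human embryonic kidney that carries adenovirus 5 DNA, were treated for 10 min with acetylimidazole (AcIm) at 100 mM, with AcIN3 at 200 mM, with NAIN3 at 100 mM or with 10% DMSO. NAIN3 is, by its name, the azide-bearing nicotinic acid imidazolide, whose aromatic acyl group is larger than the acetyl group of AcIm, and AcIN3 is known here by its label only. The labels list 14 samples, of which 8 are ribosomal RNA (2 biological replicates for each treatment), and the values analysed were the authors' mean R-scores, from 0 to 1, for the 3 reagents. Replicate values, read counts and a DMSO profile were not analysed here. The depth is therefore unknown, every value below is a mean without an error, and no difference could be tested against replicate spread. The question put to the data was where in the platform reagents with different acyl groups marked the same nucleotides and where they did not. AcIm and NAIN3 were compared at matched dose and time, whereas AcIN3 values stand beside them at a higher dose.

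Most platform nucleotides scored low with every reagent. The high scores lay in short clusters and at single nucleotides, and not every cluster was shared by the reagents. The median R-score was 0.0825 with AcIm (quartiles 0.03775 and 0.193), 0.12575 with AcIN3 (0.0565 and 0.296) and 0.0315 with NAIN3 (0.013 and 0.07125). In the other 18S nucleotides the medians were 0.077, 0.1155 and 0.0195. The platform thus lay above the rest of 18S by 0.0055, 0.01025 and 0.012 in median score, differences that were not testable with 1 mean profile per reagent. Scores above 0.5 were reached at 12 platform nucleotides with AcIm, 24 with AcIN3 and 1 with NAIN3. These were 4.17%, 8.33% and 0.347% of the platform, against 5.11%, 6.8% and 3.17% of the other 18S nucleotides, so NAIN3 combined a higher median with fewer high scores.

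A NAIN3 score of exactly 0 was rare in the platform. It occurred at 2 of 288 nucleotides (0.694%), nt 1106 and nt 1147, against 157 of 1545 elsewhere in 18S (10.2%). Of these 157, 86 lay at nt 7 to 410 (21.3% of that stretch), while nt 1600 to 1839 had 2.92% at 0. Scores close to 0 did occur, since NAIN3 gave 0.003 at 12 platform nucleotides and at 85 of the others. With AcIm 0 platform nucleotides were at 0, and with AcIN3 there were 8 (2.78%), against 0.906% and 3.37% elsewhere. Low scores fell on a small set of recurring values, since AcIm gave 0.0125 at 16, 0.0245 at 14 and 0.049 at 13 platform nucleotides. The order among the lowest scores is therefore coarse.

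Because score ranges differed between reagents, nucleotides were also ranked within 18S for each reagent, from percentile rank 0 to 100, and the 10% with the highest scores were called highly reactive. That limit corresponded to scores of at least 0.3595 with AcIm, 0.4395 with AcIN3 and 0.1385 with NAIN3. It called 9.98% of all scored 18S nucleotides for each reagent. In the platform it called 31 nucleotides with AcIm (10.8%, exact Clopper-Pearson 95% interval 7.43 to 14.9%), 37 with AcIN3 (12.8%, 9.21 to 17.3%) and 27 with NAIN3 (9.38%, 6.27 to 13.3%). All 3 intervals hold the background share, and they treat nucleotides as independent, which neighbours in an RNA are not.

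**Figure D1:**
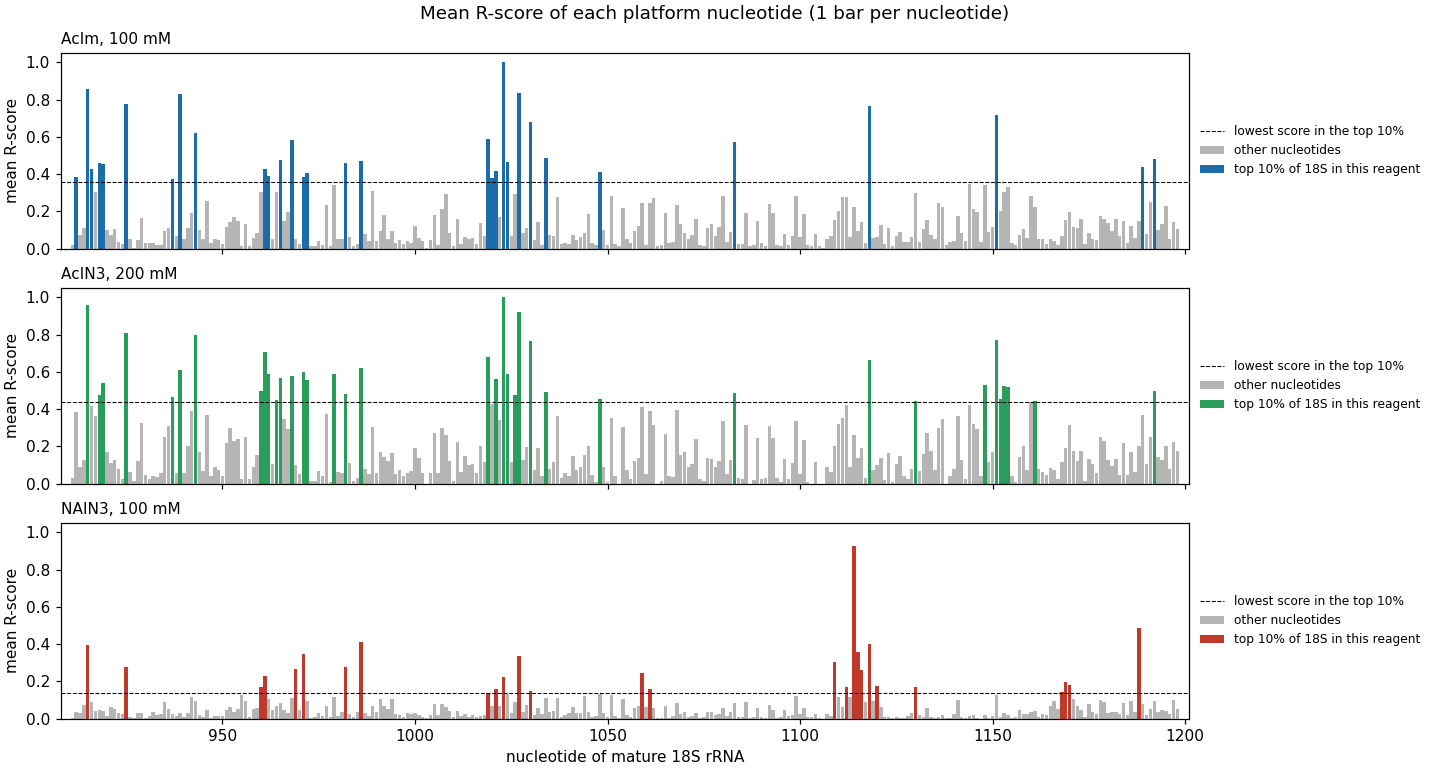
Mean R-score (vertical axis, 0 to 1) of each of the 288 platform nucleotides (horizontal axis, position in mature 18S rRNA) with AcIm, AcIN3 and NAIN3. Coloured bars are nucleotides in the top 10% of 18S for that reagent and the dashed line is the lowest score in that group. The AcIm and AcIN3 bars cluster at the 5′ side and around nt 1019 to 1030, and the tallest NAIN3 bar stands at nt 1114, where NAIN3 scored 0.927.

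Highly reactive nucleotides were concentrated in the 5′ part of the platform for AcIm and AcIN3 and more spread for NAIN3. Of 12 consecutive windows of 24 nt, nt 959 to 982 and nt 1007 to 1030 each held 7 of AcIm's highly reactive nucleotides, and the first window, up to nt 934, held 6. AcIN3 had 10 in nt 959 to 982, 7 in nt 1007 to 1030 and 5 in the window that begins at nt 1151. NAIN3 had its highest count, 7, in nt 1103 to 1126, where AcIm and AcIN3 had 1 each, and 5 in both nt 959 to 982 and nt 1007 to 1030. The windows with fewest were nt 1055 to 1078 and nt 1127 to 1150 for AcIm (0 each) and nt 1055 to 1078 for AcIN3 (0). For NAIN3 they were nt 935 to 958, nt 1031 to 1054 and nt 1079 to 1102 (0 each). Windows with a single highly reactive nucleotide followed for AcIm and AcIN3, among them nt 983 to 1006 and nt 1079 to 1102 for both.

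**Figure D2:**
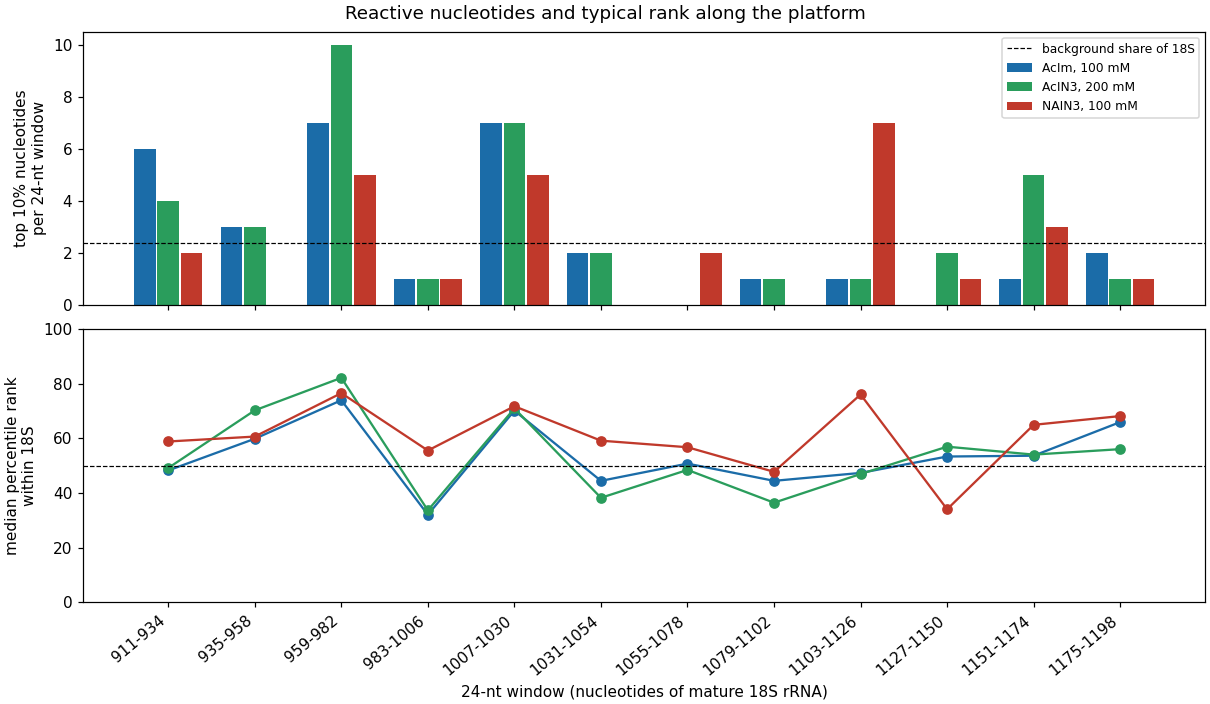
The upper panel gives the number of highly reactive nucleotides in each 24-nt window for AcIm, AcIN3 and NAIN3, with the background share of 18S (9.98%) as a dashed line. The lower panel gives the median percentile rank within 18S in the same windows, with rank 50 dashed. NAIN3 lies above AcIm by the most in nt 1103 to 1126 (median rank 76.1 against 47.4) and nt 983 to 1006 (55.6 against 32.1), and below it only in nt 1127 to 1150 (34.1 against 53.4).

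A core of platform nucleotides was highly reactive with every reagent. There were 12 of 288 (4.17%), where 3.6% of all scored 18S nucleotides were called by the same rule: nt 915, 925, 961, 971, 982, 986, 1019, 1021, 1023, 1027, 1030 and 1118. All but nt 1118 lay in the 5′ part, up to nt 1030. AcIm and AcIN3 shared 27 nucleotides, which is 87.1% of AcIm's and 73.0% of AcIN3's platform list. AcIm and NAIN3 shared 12, or 38.7% of AcIm's list and 44.4% of NAIN3's. AcIN3 and NAIN3 shared 14, or 37.8% of AcIN3's list and 51.9% of NAIN3's. Over all 18S the shared part of a list was 79.2%, 38.8% and 41.0% for these 3 pairs, in this order. The part of AcIm's platform list shared with NAIN3 was thus about that over 18S. In the following, groups are sets of at least 3 nucleotides highly reactive with any reagent, each at most 3 nt from the one before.

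At the 5′ edge, nt 915 and nt 925 had the highest scores with every reagent up to nt 934. Nt 915 reached 0.857 (AcIm), 0.956 (AcIN3) and 0.3925 (NAIN3) and was among the 5 highest platform scores of each reagent. Nt 925 scored 0.777, 0.809 and 0.2765, while nt 924 before it scored at most 0.0255 and nt 926 after it at most 0.064. AcIm called 5 of the 8 nucleotides from nt 912 to 919 highly reactive, AcIN3 3 and NAIN3 only nt 915. At nt 912 (0.382 with AcIm), nt 916 (0.4275), the listed pseudouridine Ψ918 (0.460) and nt 919 (0.4555), NAIN3 scored 0.036 to 0.0895. These NAIN3 scores ranked from 63.1 (nt 912) to 83.3 (nt 916), below its top 10% but not low for that reagent. Further on, nt 939 gave the widest contrast in score within this stretch, at 0.830 (AcIm), 0.6105 (AcIN3) and 0.031 (NAIN3). Nt 943 scored 0.6215, 0.796 and 0.0925, and nt 937 scored 0.3725, 0.4655 and 0.0225. NAIN3 thus shared the peaks at nt 915 and nt 925, while nt 937 and nt 939 ranked at only 50.6 and 58.9 with it. Nt 943 ranked at 83.7 with NAIN3, raised but below its top 10%.

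The group with most nucleotides highly reactive with AcIN3 was nt 960 to 972, where 8 of 13 nucleotides were highly reactive with AcIN3, 6 with AcIm and 4 with NAIN3. It began with a run of 3 highly reactive neighbours. Nt 960 scored 0.3035 with AcIm, 0.4945 with AcIN3 and 0.168 with NAIN3. Nt 961 scored 0.4265, 0.707 and 0.227, and nt 962 scored 0.3885, 0.586 and 0.105. All 3 nucleotides were thus well above the platform medians with each reagent. Nt 968 (AcIm 0.5805, AcIN3 0.577 and NAIN3 0.110) and the next nucleotide, nt 969 (0.049, 0.0995 and 0.2665), exchanged their order between reagents. Nt 971 was open to all, with 0.3815, 0.598 and 0.3485, and so were nt 982 (0.460, 0.483 and 0.276) and nt 986 (0.471, 0.621 and 0.4135). Nt 973 and 974, between these, were closed to all, at no more than 0.0165 with any reagent. After nt 986 no nucleotide was highly reactive with any reagent for 32 nt, up to nt 1018, the longest such gap in the platform.

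The highest AcIm and AcIN3 scores of the platform lay at nt 1019 to 1030. Here 7 of 12 nucleotides were highly reactive with AcIm, the same number with AcIN3 and 5 with NAIN3, and the stretch held 22.6%, 18.9% and 18.5% of the reagents' platform lists. It opened with the run of nt 1019 (0.587 with AcIm, 0.679 with AcIN3 and 0.139 with NAIN3), nt 1020 (0.3795, 0.4245 and 0.070) and nt 1021 (0.414, 0.5625 and 0.159). Nt 1023 reached the maximum of 1 with both AcIm and AcIN3 and scored 0.224 with NAIN3, the only platform nucleotide at 1 with any reagent. Nt 1027 scored 0.836, 0.921 and 0.338, and nt 1030 scored 0.6785, 0.7665 and 0.150. In none of these 12 nucleotides did NAIN3 score above AcIm. Nt 1034, highly reactive with AcIm (0.484) and AcIN3 (0.491), followed after nt 1031 and nt 1033 had fallen back to at most 0.0725 with every reagent. Nt 1032 between them stayed above the platform medians, at 0.145 (AcIm), 0.1935 (AcIN3) and 0.055 (NAIN3).

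**Figure D3:**
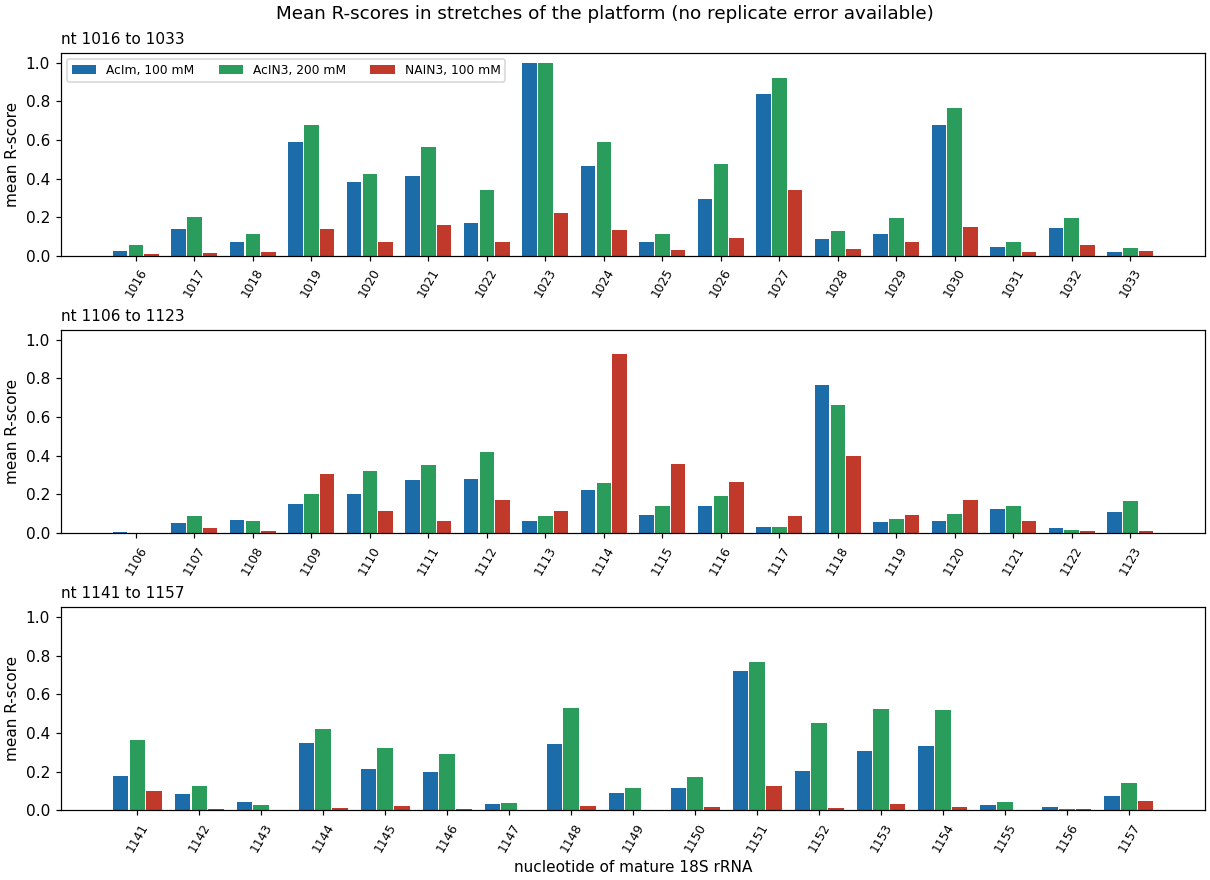
Mean R-score (vertical axes, 0 to 1) of single nucleotides (horizontal axes) with AcIm, AcIN3 and NAIN3 in nt 1019 to 1030, nt 1109 to 1120 and nt 1144 to 1154, each with 3 nt more on both sides. In the top panel the reagents share peaks at nt 1023, 1027 and 1030. In the middle panel NAIN3 leads at nt 1114 to 1116, and in the bottom panel NAIN3 stays at or below 0.1245 while AcIm reaches 0.719 and AcIN3 0.7685 at nt 1151.

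Nucleotides with low ranks for all 3 reagents were most frequent just after the middle of the platform. Nucleotides below percentile rank 25 with all 3 reagents made up 12.3% of scored 18S and 32 of 288 in the platform (11.1%), so the platform as a whole was not more closed than 18S. Within it, 17 of these 32 fell in the 3 consecutive windows from nt 1055 to 1126, with 5, 8 and 4 per window, and every other window held at most 3. The last of them, nt 1103 to 1126, also held NAIN3's highest count of highly reactive nucleotides, 7. By median rank, AcIm (32.1) and AcIN3 (33.7) were lowest at nt 983 to 1006 instead. The longest closed runs were only 2 nt long, and 9 runs shared this length: nt 973, 1063, 1074, 1084, 1090, 1094, 1102, 1105 and 1155 with the nucleotide after each. Nt 1106 was the least reactive of these, at 0.0045 with AcIm and 0 with both AcIN3 and NAIN3. Single open nucleotides interrupted the windows from nt 1055 to 1126 before nt 1109, chiefly nt 1083, at 0.5695 (AcIm), 0.4835 (AcIN3) and 0.086 (NAIN3). Nt 1059 and nt 1061 were highly reactive with NAIN3 (0.246 and 0.1575) and not with the others. They entered by rank only, since AcIm (0.2465 and 0.243) and AcIN3 (0.4085 and 0.3875) did not score below NAIN3 at either.

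NAIN3 departed from AcIm in the direction of higher scores at nt 1109 to 1120. NAIN3 called 7 of these 12 nucleotides highly reactive, 25.9% of its platform list, while AcIm and AcIN3 called only nt 1118. The NAIN3 score exceeded that of AcIm at 8 of the 12, whereas over the platform it did so at 29 of 288 (10.1%). At nt 1114 NAIN3 reached 0.927, where AcIm gave 0.223 and AcIN3 0.2605. It was the highest NAIN3 score of the platform and the only one above 0.5. Nt 1115 scored 0.3595, 0.0945 and 0.1375 in the same order, and nt 1116 scored 0.263, 0.1415 and 0.1935. These 3 neighbours formed a run that was highly reactive with NAIN3 alone, and nt 1109 (0.304 with NAIN3, 0.152 with AcIm), nt 1112 (0.1715 and 0.279) and nt 1120 (0.1735 and 0.0615) joined them. Nt 1112 entered by rank only, since its NAIN3 score was below that of AcIm. Nt 1118, at 0.7645 (AcIm), 0.662 (AcIN3) and 0.400 (NAIN3), was open to every reagent.

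The opposite departure followed at nt 1144 to 1154, a group formed by the same spacing from nucleotides whose AcIm rank exceeded that of NAIN3 by over 40 points. NAIN3 scored at most 0.1245 there, had a median of 0.016 and called none of the 11 nucleotides highly reactive, and 9 of them ranked below 50 with NAIN3. AcIm had a median of 0.211 and AcIN3 of 0.4205, and AcIN3 called 5 of the 11. Nt 1151 was the peak, at 0.719 (AcIm), 0.7685 (AcIN3) and 0.1245 (NAIN3), and began a run of 4 nucleotides highly reactive with AcIN3. It was also the peak of NAIN3 in this stretch, at rank 88.6, so there the reagents differed in score more than in rank. Nt 1152 scored 0.201, 0.452 and 0.011, nt 1153 scored 0.3055, 0.5235 and 0.031, and nt 1154 scored 0.3325, 0.5205 and 0.017. With AcIm, nt 1152 to 1154 ranked at 78, 87.2 and 88.7, below its top 10%. Nt 1148 (0.3435, 0.527 and 0.0195) and nt 1144 (0.348, 0.4205 and 0.014) showed the same order of reagents.

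Toward the 3′ edge NAIN3 led again at nt 1165 to 1168. This group was formed by the same spacing from nucleotides whose NAIN3 rank exceeded that of AcIm by over 40 points. The NAIN3 score exceeded that of AcIm at all 4 nucleotides. The run of nt 1168 (NAIN3 0.145, AcIm 0.0695 and AcIN3 0.1175), nt 1169 (0.1985, 0.153 and 0.1935) and nt 1170 (0.1785, 0.1975 and 0.314) was highly reactive with NAIN3 alone. At nt 1170 both other reagents scored higher than NAIN3, so only its rank led. Nt 1188 had the second highest NAIN3 score of the platform, 0.4845, against 0.1495 with AcIm and 0.201 with AcIN3. The next nucleotide, nt 1189, reversed this, since NAIN3 gave 0.0765, AcIm 0.4355 and AcIN3 0.368. The rules that set the groups were chosen after the scores were seen, so their counts describe the profiles and test nothing.

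At the matched dose and time, AcIm scored higher than NAIN3 at 258 of 288 platform nucleotides (89.6%), with a median difference in score of 0.0405. Elsewhere in 18S it did so at 88.2%, with a median difference of 0.0415. By rank the order turned, since NAIN3 ranked above AcIm at 185 platform nucleotides (64.2%), against 52.6% of the other 18S nucleotides. The ranks are taken within 18S, where NAIN3's nucleotides at 0 lie mostly outside the platform, and their part in this shift was not tested. Rank differences of over 40 points, a limit set after the scores were seen, occurred in favour of NAIN3 at 17 platform nucleotides (5.9%) and at 4.85% of the others. In favour of AcIm they occurred at 8 platform nucleotides (2.78%) and at 9.0% of the others, and 6 of these 8 lay in nt 1144 to 1154, the others being nt 937 and the listed Ψ1136. The widest gap of all was at nt 955, which scored 0.1265 with NAIN3 (rank 89), 0.0125 with AcIm (rank 4.83) and 0.0235 with AcIN3 (rank 11.5). That nucleotide missed NAIN3's top 10% and is named because of its value.

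**Figure D4:**
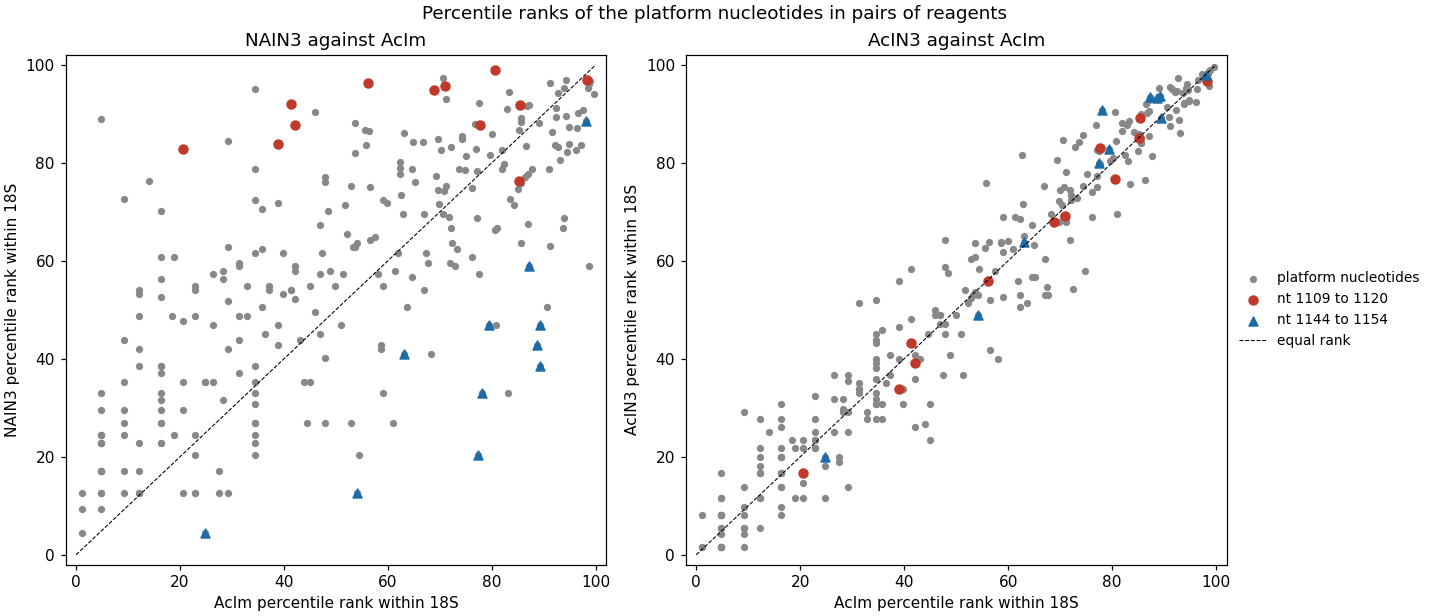
Percentile rank within 18S of each platform nucleotide with NAIN3 (left) and AcIN3 (right) against its rank with AcIm, with equal ranks dashed. Red circles are nt 1109 to 1120 and blue triangles nt 1144 to 1154. On the left 10 of the 12 red points lie above the line and all 11 blue points below it, and on the right both sets lie close to the line. The sides on the left follow largely from the choice of the sets. Red is the group with most nucleotides highly reactive with NAIN3, and blue was formed from wide rank leads of AcIm.

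None of AcIm's 31 highly reactive platform nucleotides fell below the median rank of NAIN3, while 24 of AcIm's 183 over 18S did. As a share of all scored nucleotides this was 0 of 288 in the platform against 24 of 1833 over 18S (1.31%). The reverse occurred at nt 969, 1120 and 1168, 3 of 288 (1.04%) against a background of 1.2%. Among its own highly reactive nucleotides, AcIm led NAIN3 in rank by 40 points at nt 937 and 39.8 at nt 939, and its next widest leads were 28.2 (nt 912), 27 (nt 919) and 25.3 (Ψ918). NAIN3, among its highly reactive nucleotides, led by up to 60.5 points at nt 969, ahead of 50.5 (nt 1120), 44.5 (nt 1168), 40.1 (nt 1115) and 26.8 (nt 1188). At any level the leads were wider, with 57 points for AcIm at nt 1146 (0.1965 against 0.0055), and, after nt 955, 63.5 for NAIN3 at nt 1167 (0.051 against 0.017). The counts are too small to call the platform different from the rest of 18S.

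A bound on the replicates could be taken from the means alone. If each replicate score lies between 0 and 1, some means are so far apart that both replicates of a reagent must exceed both of another. By this bound AcIm lay above NAIN3 at 6 platform nucleotides, nt 925, 939, 943, 1023, 1030 and 1151 (2.08%, background 2.45%), out of 12 with an AcIm mean above 0.5 that could qualify. NAIN3 lay above AcIm at nt 1114 alone (background 1.04%), its only nucleotide that could qualify. So if replicate scores lay between 0 and 1, the direction at these 7 nucleotides held in every replicate. At nt 925 (means of 0.777 with AcIm and 0.2765 with NAIN3) the bound was passed only narrowly. The leads of NAIN3 at nt 969, 1115, 1120, 1168 and 1188 rest on means that would allow the replicates to overlap.

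AcIN3 at its higher dose followed AcIm closely. It scored above AcIm at 243 of 288 platform nucleotides (84.4%, against 73.9% elsewhere), and wherever either was highly reactive, the other ranked at 50 or higher (background 0% in both directions). Among its highly reactive nucleotides, AcIN3 led AcIm in rank by 12.8 points at nt 1152, and then by 9.8 (nt 1161), 6.2 (nt 979 and nt 1153) and 5.7 (nt 960). Among those of AcIm, it led AcIN3 by 7 points at nt 1189, and then by 4 (nt 916), 3.8 (nt 912 and nt 1083) and 2.9 (nt 939). At any level the widest leads were 21.5 points for AcIm, at nt 1183 (0.068 against 0.0475), and 19.9 for AcIN3, at nt 928, 935 and 1006. The bound separated AcIm and AcIN3 at 0 platform nucleotides (background 0% for AcIm above AcIN3 and 0.0546% for the reverse), so the values do not settle any of these leads. Nt 1161 scored 0.4425 with AcIN3 and 0.223 with AcIm, and nt 979 scored 0.590 and 0.3425.

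Against NAIN3, AcIN3 showed its own contrast at nt 1144 to 1154, too. Highly reactive with AcIN3 and below the median rank of NAIN3 were nt 1148, 1152 and 1154 (1.04%, background 1.31%), with leads of 46.9, 57.7 and 50.4 points, followed among its highly reactive nucleotides by nt 937 (40.7) and nt 939 (36.9). The reverse again named nt 969, 1120 and 1168 (background 1.36%), with leads of 51.1, 48.7 and 40.5 points, followed by nt 1115 (40.3) and nt 1188 (28). The bound placed AcIN3 above NAIN3 at 12 nucleotides (4.17%, background 3.44%), namely nt 915, 919, 925, 939, 943, 1019, 1023, 1027, 1030, 1148, 1151 and 1154. It placed NAIN3 above AcIN3 at nt 1114 (background 0.927%). The doses of these reagents differed, so the values stand side by side only.

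Across the platform the reagents ran closer together than across the rest of 18S. The pair of AcIm and NAIN3 had a Spearman's rho of 0.704 over the 288 nucleotides, AcIN3 and NAIN3 one of 0.721, and AcIm with AcIN3 one of 0.972. In the other 18S nucleotides these were 0.556, 0.557 and 0.945. Without nucleotides at 0 with NAIN3, the values were 0.700 and 0.716 in the platform and 0.620 and 0.624 elsewhere for the pairs with NAIN3, so the gap to the rest narrowed. The points of such a rho lie on 1 molecule, and it is given as a description. Both neighbouring stretches gave lower values, with 0.448 between AcIm and NAIN3 in ES6S (nt 701 to 910) and 0.644 in the head (nt 1199 to 1599). The decoding stretch at nt 1600 to 1839 reached 0.797, so the platform was not the highest. Without nt 1109 to 1120, rho between AcIm and NAIN3 in the platform was 0.720.

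**Figure D5:**
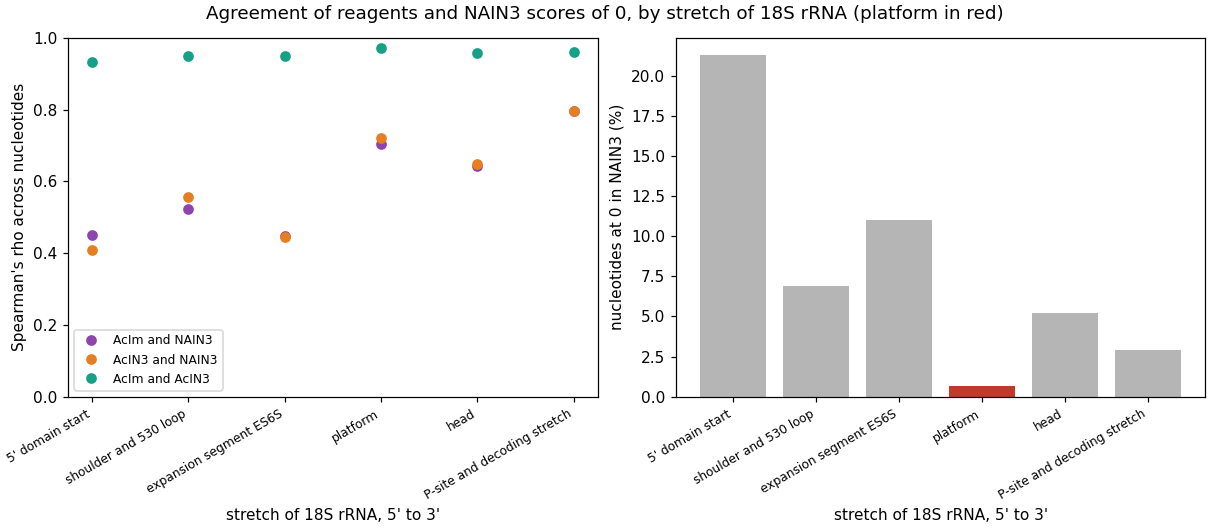
The left panel gives Spearman's rho across nucleotides for each pair of reagents in 6 consecutive stretches of 18S, and the right panel the percent of nucleotides at 0 with NAIN3, with the platform in red. The platform has the lowest share at 0 (0.694%) and the second highest rho between AcIm and NAIN3 (0.704), after the decoding stretch.

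Natural modifications are listed for 11 nucleotides of the platform. Their positions come from general knowledge and were not matched to a sequence. Am1031, listed as a ribose-methylated adenosine and so without a free 2′-hydroxyl, scored 0.0445 with AcIm, 0.0725 with AcIN3 and 0.021 with NAIN3. It lies directly after the peak at nt 1030. Of 10 listed pseudouridines, which keep the 2′-hydroxyl, 6 ranked below 50 with each reagent, but not the same 6. Ψ1177 was among them with AcIm and AcIN3 and ranked at 54.8 with NAIN3. Ψ1136 was among them with NAIN3 alone (rank 33.1). Only Ψ918 was highly reactive, with AcIm (0.460) and AcIN3 (0.4765). With 9.98% of 18S highly reactive and ranks centred on 50, these counts lie near the background and are no result about the sites. Ψ966 (0.1495, 0.3455 and 0.0455 with AcIm, AcIN3 and NAIN3), Ψ1045 (0.1855, 0.200 and 0.033) and Ψ1136 (0.2445, 0.296 and 0.011) were intermediate with AcIm and AcIN3. The other 6, Ψ1004, Ψ1046, Ψ1056, Ψ1081, Ψ1174 and Ψ1177, scored at most 0.0575 with any reagent.

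The limits of the platform did not fall at a step in the scores. The 5 nucleotides before it, nt 906 to 910, scored 0.0125 to 0.1775 with AcIm and 0.0085 to 0.0525 with NAIN3. The first 5 inside, up to nt 915, scored 0.020 to 0.857 and 0.003 to 0.3925, the high values being those of nt 915. The last 5 inside, from nt 1194, scored 0.0535 to 0.2265 with AcIm and 0.026 to 0.0975 with NAIN3. The 5 after it, nt 1199 to 1203, scored 0.0245 to 0.4645 and 0.010 to 0.174.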

How the data were processed

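The authors' mean R-score per nucleotide of 18S rRNA, a score from 0 to 1 given in steps of 0.0005, was used as deposited. Each column was the mean of a reagent's 2 replicates, so the replicates could not be examined. The submitters' processing notes name Bowtie2 and GRCh38 without a version or role, while how the score was formed, DMSO used and depth filtered is not stated there. A score capped at 0 and 1 loses order at both ends, and averaging removes replicate spread. Reads from the rRNA gene copies cannot be told apart. The profile covers 1869 nt, the length of all 5 listed copies in GRCh38.p14 (RNA18SN1 to RNA18SN5; 3 on chromosome 21, 1 on chromosome 22 and 1 unplaced), with scores from nt 7 to 1839. No rRNA sequence was used.

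Percentile ranks (ties averaged) and the top 10% (183 nt, ties ordered by position) were taken within 18S for each reagent. The platform was cut into windows of 24 nt. Named nucleotides were the 5 highest scores per reagent, the 5 widest rank leads per pair and direction among the higher reagent's top 10%, those passing the replicate bound, open runs of at least 3 nt, the longest closed runs, extreme windows and listed modified sites. The bound rests on each replicate lying between 2m − 1 and 2m for a mean m. Members and lists were chosen with earlier results of these data known. The grouping rules (spacing of 3 nt, gap of 40 points) and the leads at any level (nt 955 and others) were chosen after the scores were seen. Tested on simulated data with planted scores set far from the background, the opposed, closed and bound calls recovered the planted nucleotides. This checks the coding of the rules and not their error on real scores. False calls were not counted for the opposed and closed rules. Tools were pandas 2.3.3, scipy 1.17.1, numpy 2.4.6 and matplotlib 3.10.9 under Python 3.11.15.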

Additional observations from a re-analysis of the deposited data

How the results depend on the processing

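No paired analysis was possible because the values are means over replicates, and leaving out a replicate could not be run for the same reason. Medians stayed within their exact binomial intervals without the outer 20 nt on each side and without nucleotides at 0. No platform nucleotide lies near one that scored 1 with all reagents, so that alternative removed none. The share of highly reactive nucleotides with AcIm, AcIN3 and NAIN3 was 4.17%, 5.9% and 3.82% with a top 5% and 22.2%, 25.3% and 24.7% with a top 20%, as the limit itself sets. With a top 20%, opposed nucleotides numbered 5 for AcIm over NAIN3, 8 for NAIN3 over AcIm, 7 for AcIN3 over NAIN3 and 8 for NAIN3 over AcIN3. With a top 5%, or with low taken as below rank 25, each of these counts was 0. With the NAIN3 profile moved by 1 nt toward the 3′ end, the same 4 counts were 5, 9, 7 and 10, and toward the 5′ end they were 10, 14, 15 and 14. The bound then gave 12 and 11 nucleotides for AcIm above NAIN3 and 17 and 22 for AcIN3 above NAIN3. Spearman's rank correlation of AcIm and NAIN3 was 0.149 toward the 3′ end and reversed to -0.039 toward the 5′ end, and that of AcIN3 and NAIN3 was 0.147 and -0.047. For AcIm and NAIN3, Pearson's r was 0.491, rho of 5-nt means 0.567, rho without the outer 20 nt 0.698, without NAIN3 zeros 0.7 and without nt 1109 to 1120 0.72. For AcIN3 and NAIN3 these were 0.503, 0.524, 0.719, 0.716 and 0.742, and for AcIm and AcIN3 0.953, 0.957, 0.974, 0.972 and 0.971. Windows of 12 nt raised the highest share from 29.2% to 58.3% with AcIm, from 41.7% to 58.3% with AcIN3 and from 29.2% to 41.7% with NAIN3. Closed nucleotides numbered 15 below rank 20. The last 2 exclusions for rho, and the NAIN3 share without nt 1109 to 1120 (7.25%), were added after the data were seen. The causes were not tested. The depth behind a score is unknown, so no count-based limit could be given.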

Other observations

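Scores 3 nt apart in the platform resembled each other more than scores 2 nt apart. Spearman's rho between a nucleotide and that 3 nt further along was 0.27 with AcIm, 0.25 with AcIN3 and 0.35 with NAIN3. At a distance of 2 nt it was 0.04, 0.03 and 0.17, and at 4 nt 0.06, 0.06 and 0.15. In the other 18S nucleotides rho at 3 nt was 0.22, 0.24 and 0.28, against 0.11, 0.13 and 0.32 at 2 nt, so NAIN3 did not show this order there. These are descriptions of 1 mean profile per reagent.

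Directly adjacent nucleotides were more alike with NAIN3 (rho of 0.32) than with AcIm (0.1) or AcIN3 (0.08), and the same order held elsewhere in 18S (0.48, 0.18 and 0.17). Of 15 platform nucleotides highly reactive with NAIN3 and not with AcIm, 1 directly followed a nucleotide highly reactive with AcIm, against 23 of 97 elsewhere in 18S.

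The means also set a lower limit on how often replicates differed, but not by how much. A mean on an odd step of 0.0005 requires unequal replicates if these had 3 decimals. Such steps made up 55.2% of platform scores with AcIm, 59% with AcIN3 and 45.1% with NAIN3, against 51.3%, 56% and 42.9% elsewhere in 18S. An odd step can come from a very small difference, and an even step does not show that replicates were equal. The 288 scores took 159 distinct values with AcIm, 163 with AcIN3 and 145 with NAIN3.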
